A study of Mus musculus with 2 samples.

Results

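Cic encodes Capicua, and Atxn1 and Atxn1l encode Ataxin-1 and Ataxin-1-like, its partner proteins. The 3 genes were taken by symbol from the 33696 features of the count tables, where each symbol has 1 row. They were described in nuclei of mouse hippocampus at postnatal day 19, by single-nucleus RNA sequencing with 3′ capture, in 1 library labelled control and 1 labelled knockout. The control mice carried 2 floxed alleles of Cic (Cicflox/flox). The knockout mice carried the same floxed alleles and Emx1-Cre (Emx1-Cre; Cicflox/flox), so the floxed alleles were common to both groups. Each library pooled 1 hippocampus from each of 3 littermates, 2 males and 1 female, so there is no replicate library and no test between genotypes. Every interval below is an exact 95% interval that covers counting error only, not the spread between animals.

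Capicua is an HMG-box repressor that binds short octamers in DNA and holds down genes of the receptor tyrosine kinase and MAP kinase response, such as the ETS factors Etv1, Etv4 and Etv5. Ataxin-1 and Ataxin-1-like share a domain through which they bind Capicua, and they are known to keep Capicua protein stable. Expansion of the polyglutamine tract of Ataxin-1 causes spinocerebellar ataxia type 1, and Capicua is part of the complexes involved. Emx1-Cre recombines in the dorsal telencephalic lineage, which gives rise to hippocampal excitatory neurons and to local astrocytes and oligodendrocytes, whereas inhibitory neurons and microglia come from other lineages.

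The UMIs of a gene (unique molecular identifiers, 1 per captured RNA molecule) were summed over all nuclei of a class in a library and divided by the class total, giving CPM (UMI counts scaled to a common class total). The libraries held 25907 and 23207 barcodes, and 21783 control and 20569 knockout nuclei were used, with medians of 9786 and 8765 UMIs. The libraries shared 175 barcodes. The 15 classes compared had at least 100 nuclei in each library and were named from marker genes, so each carries the ending "-like". They came from 45 clusters, of which 11 stayed unnamed. Those 11 held 2502 control and 2454 knockout nuclei, or 11.5% and 11.9% of the nuclei used. Summed over them, Cic had 7.38 CPM in the control and 12.3 in the knockout library, and Atxn1 603 and 1026. Of the 11, 2 stayed unnamed through a minimum set on the markers' mean fold, with 3.54% of control and 3.76% of knockout nuclei. Dentate granule-like, CA1-like and oligodendrocyte-like nuclei were filled by different clusters in the 2 libraries. Dentate granule-like nuclei came mostly from cluster 3 in the control library (3219 nuclei, against 96 in the knockout) and from cluster 0 in the knockout library (3253, against 1162). CA1-like nuclei came mostly from cluster 10 in the control library (1291, against 38) and from cluster 6 in the knockout library (1291, against 334). Oligodendrocyte-like nuclei came mostly from cluster 14 in the control library (663, against 193) and from cluster 12 in the knockout library (690, against 446).

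Sequence at the start sites is given first, because the counts bear on Cic itself and on genes that Capicua is known to bind. Capicua's octamers were searched as TGAATGAA, TGAATGGA, TCAATGAA and TCAATGGA on both strands, in RefSeq windows of 300 bases (250 before and 50 after a start, build GRCm38.p6). Of 32851 such windows, 1260 held an octamer, which is 3.84%. The table gives 2 windows for Cic, which has 2 annotated starts, and 1 for Atxn1l. None of these 3 windows held an octamer, which says only that these letters are not there. Atxn1 and Etv4 were not in the table. Among 14 genes of a Capicua target list, 9 had entries with 11 windows, and 3 windows held an octamer, those of Spred3, Dusp6 and Spry2. The 100 bases before each of these starts are printed with the octamer in capitals, beside the same stretch before both Cic starts, on the strand of the gene. The Cic stretches are chr7:25267599-25267698 and chr7:25282079-25282178 (both plus strand). The others are Spred3 at chr7:29168648-29168747 (minus strand), Dusp6 at chr10:99263131-99263230 (plus strand) and Spry2 at chr14:105896820-105896919 (minus strand).
Cic, first start: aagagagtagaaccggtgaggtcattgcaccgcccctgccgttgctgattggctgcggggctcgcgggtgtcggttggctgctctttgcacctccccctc
Cic, second start: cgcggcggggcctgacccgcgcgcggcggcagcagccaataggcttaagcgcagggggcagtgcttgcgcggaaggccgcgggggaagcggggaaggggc
Spred3: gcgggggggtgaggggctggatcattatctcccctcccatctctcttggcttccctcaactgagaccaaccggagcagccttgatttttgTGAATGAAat
Dusp6: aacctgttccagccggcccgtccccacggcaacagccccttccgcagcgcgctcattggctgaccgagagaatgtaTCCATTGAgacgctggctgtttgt
Spry2: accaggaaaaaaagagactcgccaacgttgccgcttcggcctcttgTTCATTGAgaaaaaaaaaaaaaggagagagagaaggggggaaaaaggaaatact
The printed octamer began 10 bases before the start of Spred3, 24 before that of Dusp6 and 54 before that of Spry2. The Dusp6 window held a second octamer, just after the start and outside the printed stretch. A 3′ count adds up transcripts from both Cic starts, so the long and short forms of Capicua could not be told apart. It also cannot show whether floxed exons are missing from a transcript, because the deposited counts are per gene.

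Cic (ENSMUSG00000005442), the targeted gene, was higher and not lower in the library labelled knockout. Over all nuclei used it had 2542 UMIs in the control library and 3028 in the knockout, or 9.85 against 14.02 CPM (log2 ratio of knockout over control 0.51, interval 0.43 to 0.59). Which exons are floxed is not given in the sources used here, so the 3′ counts may lie outside the deleted stretch, and the Cic level then checks nothing about the labels. The library labelled knockout is called the knockout library from here on, by its label only. In dentate granule-like nuclei the known Capicua target Etv4 stood at 1.06 CPM in the control and 112 in the knockout library, and Etv5 at 1.46 and 90.9.

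In CA1-like nuclei, the pyramidal neurons of the hippocampal output, Cic went from 230 UMIs in the control to 350 in the knockout library, or 6.58 against 12.2 CPM. That is a log2 ratio of 0.89 (0.64 to 1.13). Within the CA1-like clusters it was 0.90 in cluster 6, 1.64 in cluster 10, where the knockout library had 12 UMIs, and 0.53 (-0.06 to 1.17) in cluster 25. CA3-like nuclei, the target of the mossy fibers, had 218 and 321 Cic UMIs, or 6.91 and 11.98 CPM (0.79, 0.54 to 1.05). The interval lay above 0 in each of the 3 CA3-like clusters. Dentate granule-like nuclei, whose axons are the mossy fibers, had 489 and 466 Cic UMIs from fewer knockout nuclei, or 9.07 and 12.3 CPM (0.44, 0.25 to 0.63). Within clusters 0 and 3 the ratios were 0.30 (0.01 to 0.60) and 0.52 (-0.41 to 1.24). Cic CPM was thus higher in the knockout library in each of these 3 excitatory classes, with the smallest ratio in granule neurons.

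Oligodendrocyte-like nuclei had the highest Cic level of the knockout library, with 269 UMIs against 185 in the control, or 35.0 against 20.3 CPM (0.79, 0.51 to 1.06). The interval of that knockout level, 31.0 to 39.5 CPM, overlapped that of radial glia-like nuclei, the next in order (18.9 to 42.5). Within clusters 12 and 14 the ratios were 0.55 (0.24 to 0.88) and 0.48 (-0.29 to 1.17), both under 1.5-fold. Subicular or cortical excitatory-like nuclei had 105 and 156 UMIs (0.62, 0.25 to 0.99), and immature dentate granule-like nuclei 208 and 232 (0.29, 0.01 to 0.56). Inhibitory-like nuclei had 205 and 173 Cic UMIs, or 9.90 and 9.44 CPM, with an interval that holds 0 (-0.07, -0.37 to 0.23). Microglia-like nuclei, at 84 and 64 UMIs, also held 0 (-0.09, -0.58 to 0.40). Across the 15 classes the Cic interval lay above 0 in 6, held 0 in 9 and lay below 0 in none. A ratio past 1.5-fold was found in CA1-like, CA3-like, oligodendrocyte-like and subicular or cortical excitatory-like nuclei. The share of all features with at least 50 UMIs that were 1.5-fold higher was 10.4% in CA1-like, 5.91% in CA3-like, 4.91% in oligodendrocyte-like and 5.07% in subicular or cortical excitatory-like nuclei. Cic therefore sat in the upper part of each class but not apart from it: 5.43% of 13426 features in CA1-like nuclei and 3.23% of 13377 in CA3-like nuclei had a ratio at or above that of Cic.

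Cic counts were thin in single nuclei. In CA1-like nuclei 11.8% of control nuclei had a Cic UMI (interval 10.3 to 13.4%) at a median depth of 18248 UMIs, and 18.2% of knockout nuclei (16.4 to 20.1%) at 16388. Of the 305 knockout CA1-like nuclei with Cic, 264 had a single UMI and none more than 3. Thinned to 2000 UMIs per nucleus, leaving out 1 shallower control nucleus, the shares were 1.77% and 2.74%, and their intervals overlapped. No class is known to lack Cic, so no background share from free RNA is given.

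**Figure D1:**
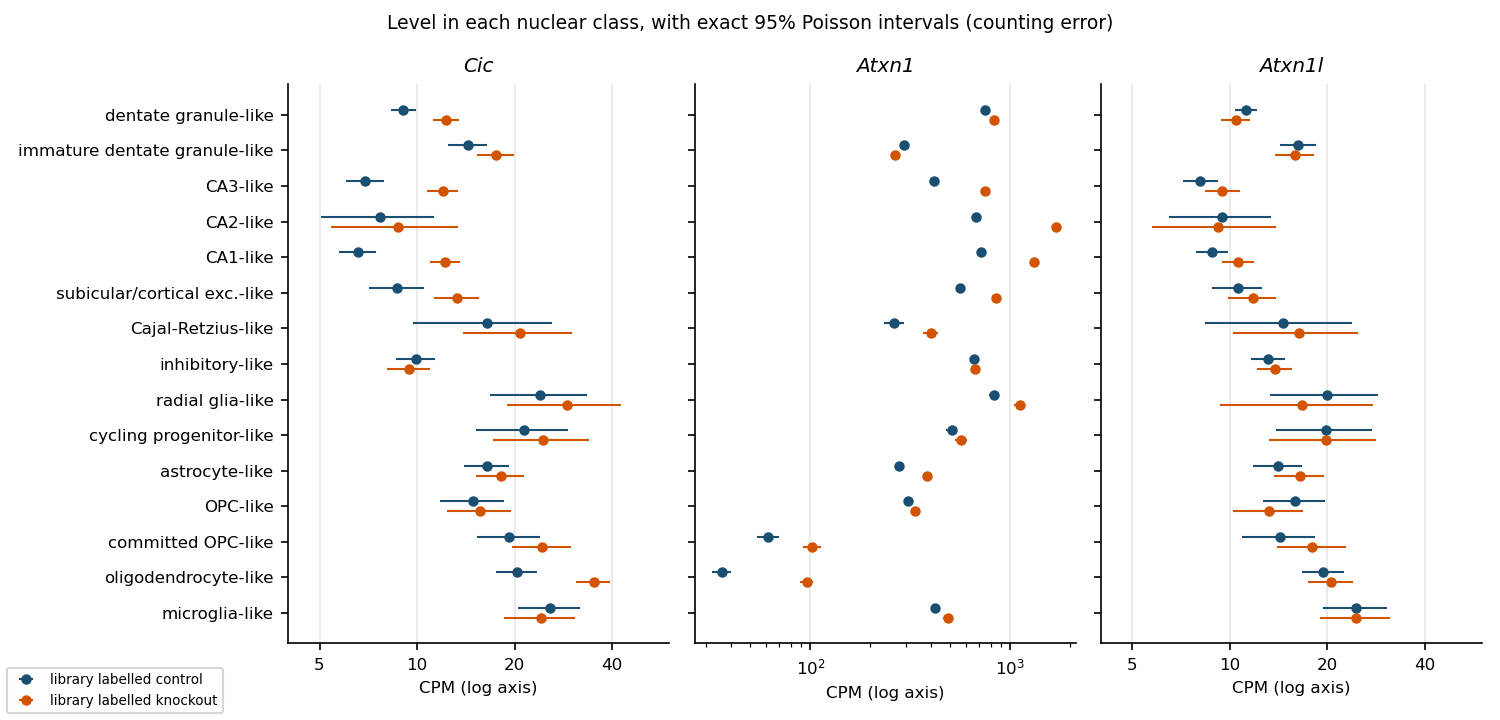
Level of Cic, Atxn1 and Atxn1l in CPM (log axis) in 15 nuclear classes, for the library labelled control (blue) and the one labelled knockout (orange), with exact 95% Poisson intervals. Cic is lowest in CA1-like and CA3-like control nuclei at 6.58 and 6.91, while Atxn1 spans 35.9 in oligodendrocyte-like to 835 in radial glia-like control nuclei.

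Part of the nuclei could be assigned to the 1 female or the 2 males of a pool from Xist and Y-linked genes: 6444 and 6294 female, and 9466 and 9126 male nuclei in the control and knockout libraries. The other 5873 and 5149 nuclei were unclear and left out of the split. In CA1-like nuclei the Cic log2 ratio was 1.36 (0.91 to 1.83) in female and 0.49 (0.12 to 0.87) in male nuclei, and the intervals did not overlap. In CA3-like nuclei it was 1.27 (0.84 to 1.71) and 0.43 (0.05 to 0.81). The control levels were alike, at 6.17 and 6.72 CPM in female and male CA1-like nuclei, and the knockout levels were 15.9 and 9.47. Oligodendrocyte-like nuclei gave 0.83 and 0.80. The female value rests on 1 mouse per genotype, so sex and animal cannot be told apart, and the difference between the sexes was not tested.

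Atxn1 (ENSMUSG00000046876) was by far the most counted of the 3 genes, with 145148 control and 175783 knockout UMIs, and it was higher in the knockout library in most classes. CA1-like nuclei went from 719 to 1315 CPM, on 25155 and 37789 UMIs (log2 ratio 0.87, 0.85 to 0.89). Per nucleus that is 13.9 UMIs in the control and 22.5 in the knockout library. CA3-like nuclei went from 416 to 749 CPM (0.85, 0.82 to 0.88), and the 3 CA3-like clusters gave 0.79 to 0.88. CA2-like nuclei, a single cluster of 141 and 114 nuclei between CA3 and CA1, went from 676 to 1691 (1.32, 1.25 to 1.40). Atxn1 was thus higher in all 3 fields of the Ammon's horn, and CA2-like nuclei moved from the fourth to the first place among the classes.

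Dentate granule-like nuclei had 746 and 827 Atxn1 CPM (0.15, 0.13 to 0.17), with 0.27 and 0.31 within clusters 0 and 3. Per nucleus the counts were 9.19 and 9.36. Their immature form was the only class with an Atxn1 interval below 0, at 293 and 265 CPM (-0.15, -0.21 to -0.08). The interval held 0 in its larger cluster, cluster 1 (-0.09, -0.20 to 0.03), and in female nuclei (-0.06, -0.17 to 0.05). Inhibitory-like nuclei had 662 and 671 CPM (0.02, -0.02 to 0.05), and their 4 clusters lay between -0.05 and 0.09. Atxn1 was thus level between the libraries in inhibitory-like nuclei. It was higher in the knockout library in dentate granule-like nuclei, by less than in CA1-like and CA3-like nuclei.

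Subicular or cortical excitatory-like and Cajal-Retzius-like nuclei each had a log2 ratio of 0.61 (0.56 to 0.65 and 0.40 to 0.82). Astrocyte-like nuclei had 278 and 384 CPM (0.47, 0.39 to 0.54) and radial glia-like nuclei 835 and 1118 (0.42, 0.30 to 0.54). The Atxn1 interval lay above 0 in 13 of 15 classes. A ratio past 1.5-fold was found in 7, CA1-like, CA2-like, CA3-like, subicular or cortical excitatory-like, Cajal-Retzius-like, committed oligodendrocyte precursor-like and oligodendrocyte-like nuclei. Over 12 other settings the ratio stayed past 1.5-fold in 12 for CA1-like and CA3-like, 11 for oligodendrocyte-like and committed oligodendrocyte precursor-like, 10 for Cajal-Retzius-like and 8 for subicular or cortical excitatory-like nuclei, and in all 10 that gave a value for CA2-like nuclei. For the classes not given above, 7.39% of all features were that much higher in CA2-like, 6.41% in Cajal-Retzius-like and 4.47% in committed oligodendrocyte precursor-like nuclei. A ratio at or above that of Atxn1 was found for 5.60% of features in CA1-like, 2.65% in CA3-like and 1.12% in CA2-like nuclei, but for 29.4% in dentate granule-like and 57.2% in inhibitory-like nuclei.

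Atxn1 was lowest in oligodendrocyte-like and committed oligodendrocyte precursor-like nuclei in both libraries. Oligodendrocyte-like nuclei had 327 and 735 UMIs, or 35.9 and 95.7 CPM (1.41, 1.22 to 1.61), with 2.25 and 1.26 within clusters 12 and 14. The share of nuclei with an Atxn1 UMI was 17.9% and 38.1% at median depths of 7896 and 8299. The Atxn1 levels were 6.38% and 11.8% of the level over the whole library, so free RNA at 10% of a nucleus's UMIs would supply all of the control count. With 10% free RNA subtracted, 0 control and 110 knockout UMIs were left, and the fitted ratio of 8.04 depends on the 0.5 UMI added and is no bound. Committed oligodendrocyte precursor-like nuclei had 258 and 386 UMIs (0.73, 0.50 to 0.97), at 10.9% and 12.5% of the library level. With doublets kept, the ratio in oligodendrocyte-like nuclei was 0.30, on 1871 and 1718 UMIs. Cic in oligodendrocyte-like nuclei differed in this respect, at 206% and 250% of its library level.

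In the CA classes the Atxn1 ratios of the sexes lay close, although in CA1-like nuclei their intervals, 0.81 to 0.90 and 0.91 to 0.98, did not overlap. Female and male nuclei had 0.86 and 0.94 in CA1-like, 0.86 and 0.86 in CA3-like and 1.35 and 1.33 in CA2-like nuclei. This differs in form from Cic, whose female and male ratios in CA1-like nuclei were 1.36 and 0.49. In oligodendrocyte-like nuclei the Atxn1 ratio was 1.92 in female and 1.04 in male nuclei.

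Atxn1 spans 415 kb in RefSeq, and nuclear RNA is rich in unspliced transcripts, so genes of like span are given beside it. In CA1-like nuclei 951 features spanned at least 200 kb, with a median log2 ratio of 0.08 and 18.7% of them 1.5-fold higher. Among the 6916 features of at most 30 kb the median was 0.13 and 8.30% were 1.5-fold higher. Of the long features, 11.2% had a ratio at or above that of Atxn1 in CA1-like nuclei, 4.67% in CA3-like and 2.02% in CA2-like nuclei. A large ratio was therefore more common among long features in CA1-like nuclei, and the part of gene length in the Atxn1 ratio was not tested.

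**Figure D2:**
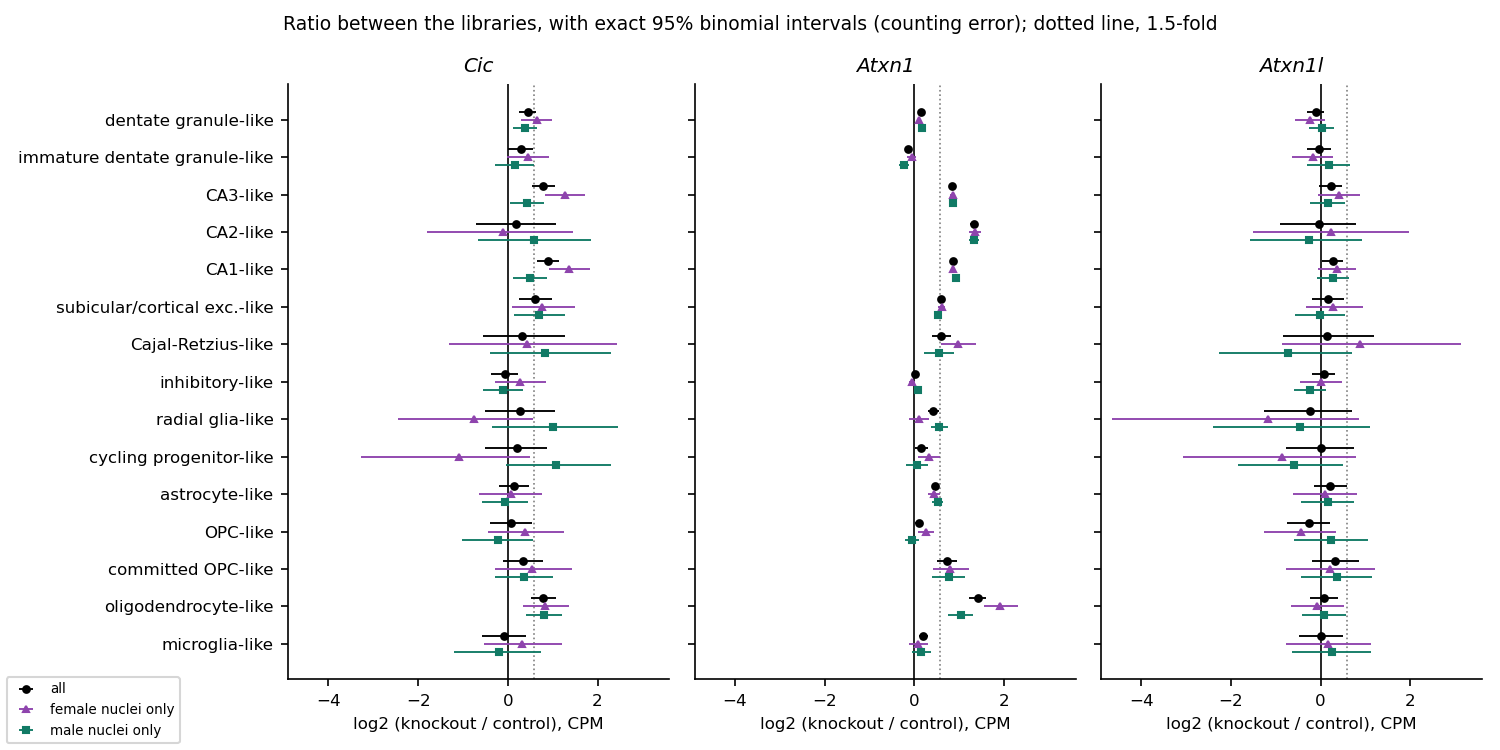
Log2 ratio of knockout over control for the 3 genes in 15 classes, from all nuclei (black circles), female nuclei (purple triangles) and male nuclei (green squares), with exact 95% binomial intervals and a dotted line at 1.5-fold. Atxn1 lies right of the line in CA1-like, CA2-like and CA3-like nuclei of both sexes, Cic lies farther right in female than in male nuclei in CA1-like (1.36 against 0.49) and CA3-like but not in CA2-like nuclei, and Atxn1l stays left of the line when all nuclei are used.

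Atxn1l (ENSMUSG00000069895), the shorter paralog, was close to level between the libraries. It had 2928 and 2640 UMIs, or 11.3 and 12.2 CPM (0.11, 0.03 to 0.18). CA1-like nuclei had 308 and 305 UMIs, or 8.81 and 10.6 CPM (0.27, 0.04 to 0.50), the 1 class of 15 with an interval above 0. CA3-like nuclei had 256 and 254 UMIs (0.22, -0.03 to 0.48). Dentate granule-like nuclei had 605 and 395 UMIs, or 11.2 and 10.4 CPM (-0.11, -0.29 to 0.08), with -0.38 (-0.64 to -0.11) within cluster 0 and 0.26 (-0.67 to 0.98) within cluster 3. Inhibitory-like nuclei had 272 and 252 UMIs (0.07, -0.19 to 0.32). In the other 14 classes the interval held 0, and no class was 1.5-fold apart, whereas Atxn1 was past 1.5-fold in CA1-like and CA3-like nuclei. Single clusters went further: Atxn1l was at 0.97 (0.28 to 1.75) in CA1-like cluster 25, on 22 and 69 UMIs, and at 0.79 (0.22 to 1.38) in CA3-like cluster 22, on 43 and 66, where Atxn1 gave 0.50 and 0.79.

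Other scalings moved the ratios by small amounts, which ended some calls. Median-of-ratios and TMM scaling moved every ratio by -0.10 and -0.10 in CA1-like, by -0.10 and -0.14 in CA2-like nuclei, and by less than 0.1 in the other 13 classes. On these scales the CA1-like values of Cic, Atxn1 and Atxn1l were lower by that amount than those printed, and no member changed its direction there. Under both scalings Cic (0.55 and 0.55) and Atxn1 (0.54 and 0.54) fell under 1.5-fold in subicular or cortical excitatory-like nuclei. The interval came to hold 0 for Cic in immature dentate granule-like nuclei, for Atxn1 in cycling progenitor-like and oligodendrocyte precursor-like nuclei, and for Atxn1l in CA1-like nuclei.

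Levels were also divided by gene span. Over all control nuclei Cic had 0.372, Atxn1 1.35 and Atxn1l 1.00 CPM per kb of gene span, and over knockout nuclei 0.529, 1.96 and 1.08. Undivided, the control levels were 9.85, 563 and 11.3 CPM. A UMI stands for a captured RNA molecule, and whether intronic reads were counted is not given. Counts are thus not known to grow with span, and the values per kb do not show that genes have like levels. Across the 15 control classes Cic ran from 6.58 CPM in CA1-like to 25.7 in microglia-like nuclei, and Atxn1l from 8.11 in CA3-like to 24.5 in microglia-like nuclei. Neighbouring classes in these orders had overlapping intervals, except that immature dentate granule-like nuclei stood above inhibitory-like nuclei for Cic in the control library (14.4 against 9.90). The orders of Cic and Atxn1l followed depth: their level across the 15 classes correlated with the mean UMIs per nucleus at r = -0.92 and -0.91 in the control and -0.73 and -0.83 in the knockout library. Atxn1 gave 0.20 and 0.34. The classes of a library share that library and its depth, so these are descriptions.

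Cic and Atxn1l had like patterns over the 15 classes, with r = 0.95 in the control and 0.85 in the knockout library on the log2(CPM + 1) scale, whereas Cic and Atxn1 gave -0.43 and -0.63. Both Cic and Atxn1l followed depth, as given above, and the part of depth in this likeness was not tested. By the lower of both r values, 0.618% of 13266 genes were at least as like Cic as Atxn1l was, and 2.00% were at least as like Atxn1l as Cic was. By the lower of the r values of the 2 libraries among 13266 genes, the genes most like Cic were Zfand6, Tlk2, Ptgds, Rbms2 and Syt11 (0.91 to 0.92). Those most like Atxn1 were Plxnc1, Sipa1l1, Ildr2, Ripor1 and Cap2 (0.84 to 0.87), and those most like Atxn1l were Elmod2, Srsf2, Nras, Nfatc3 and Scaf11 (0.93 to 0.95).

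The genes around each member were set beside it, using the 3 nearest on each side with at least 50 UMIs. Just after Cic lie Pafah1b3, a catalytic subunit gene of platelet-activating factor acetylhydrolase 1b, and Tmem145, a membrane protein gene. Pafah1b3 lies on the opposite strand, and its nearer edge is 889 bases after the end of Cic in the annotation (GRCm38). It had 17 and 64 UMIs in CA1-like (2.16, 1.41 to 3.06), 15 and 50 in CA3-like (1.94, 1.12 to 2.91) and 44 and 85 in dentate granule-like nuclei (1.45, 0.92 to 2.02). In inhibitory-like nuclei it had 25 and 35 UMIs (0.65, -0.12 to 1.46), under the minimum of 50. Pafah1b3 was thus more than 1.5-fold higher in the 3 main excitatory classes.

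Tmem145, on the strand of Cic, had 276 and 527 UMIs in CA1-like (1.21, 1.00 to 1.43), 406 and 609 in CA3-like (0.82, 0.64 to 1.01) and 536 and 600 in dentate granule-like nuclei (0.67, 0.50 to 0.84). In inhibitory-like nuclei it had 514 and 497 (0.13, -0.05 to 0.31). Female and male nuclei gave 1.77 and 0.87 in CA1-like and 0.89 and 0.79 in CA3-like nuclei. Over these 4 classes Tmem145 had the order of Cic, but not with subicular or cortical excitatory-like nuclei added, where it was at 0.94 and Cic at 0.62.

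Before Cic, Gsk3a, a kinase gene, had 0.10 in CA1-like, 0.10 in CA3-like and 0.23 (0.06 to 0.40) in dentate granule-like nuclei. Erf, an ETS repressor gene and the nearest on that side, had -0.16, 0.16 and -0.42, with an interval below 0 in dentate granule-like nuclei (-0.70 to -0.15). Zfp526 had 0.44, 0.42 and 0.31, each with an interval that holds 0. In these 3 classes the larger ratios were thus those of Cic, Pafah1b3 and Tmem145, 3 genes in a row among the counted ones. Other classes differed. A further gene before Cic had 0.72 (0.22 to 1.25) in subicular or cortical excitatory-like and 0.63 (0.12 to 1.16) in inhibitory-like nuclei. Over 7 counted classes its interval lay above 0 in 3 and below 0 in 1. In immature dentate granule-like nuclei Pafah1b3 had 0.40 (0.01 to 0.79) and Tmem145 0.15 (-0.08 to 0.38). The cause was not tested.

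**Figure D3:**
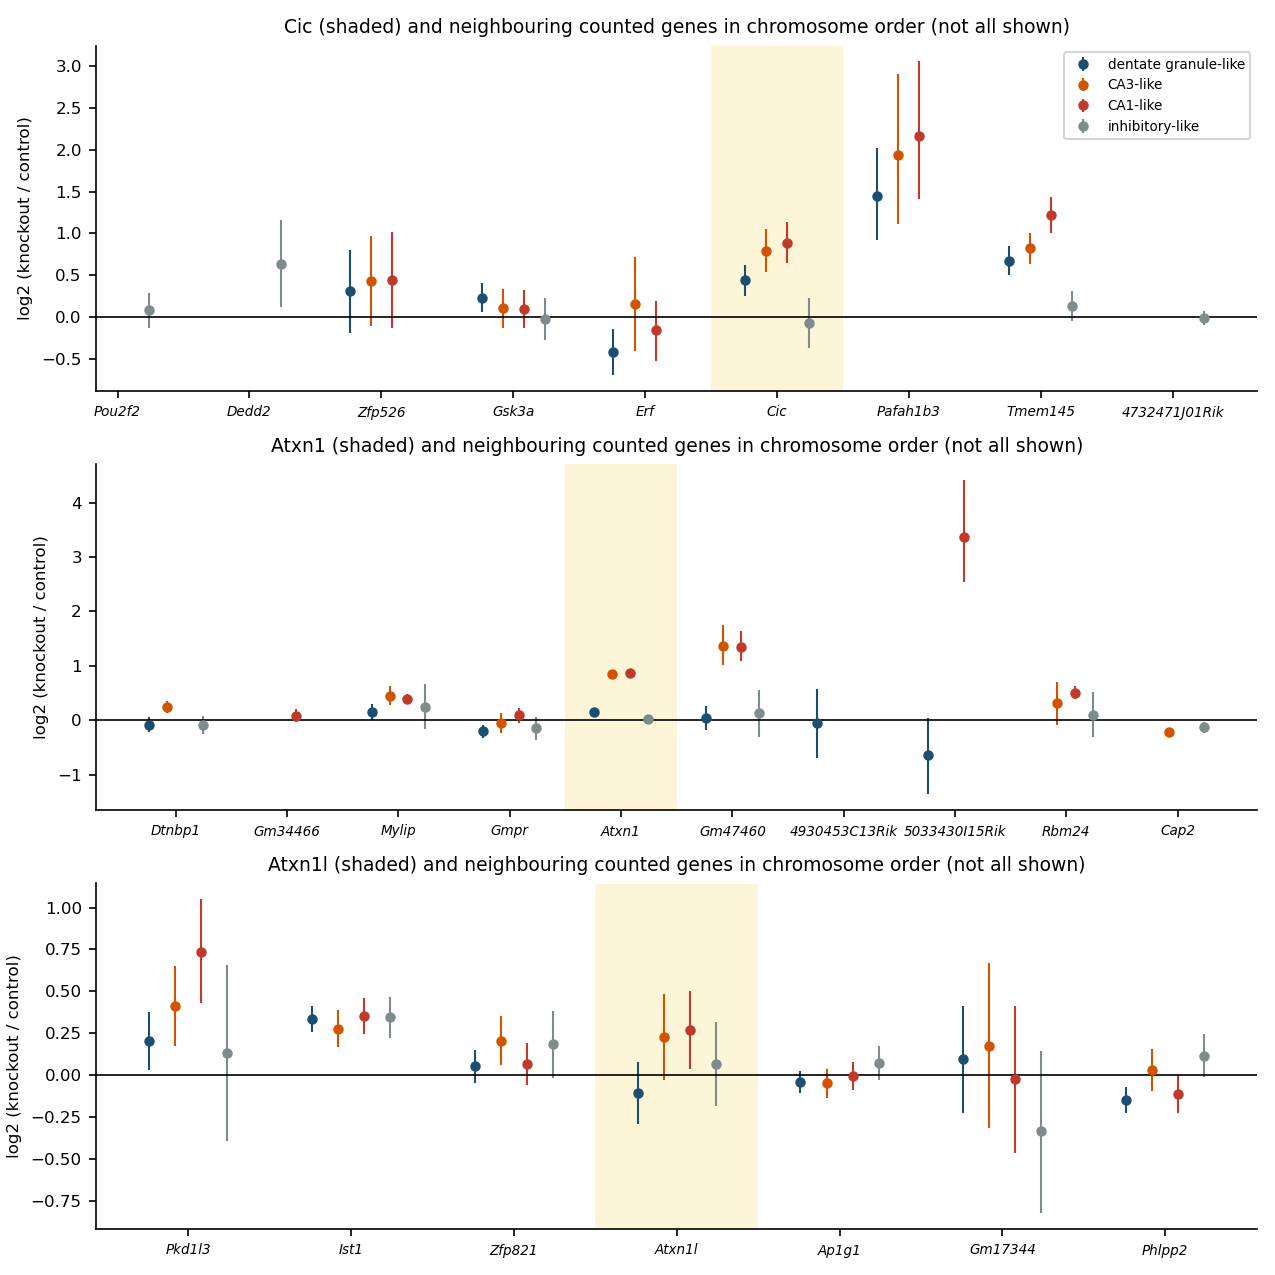
Log2 ratio of knockout over control, with exact 95% binomial intervals, for each member (shaded) and neighbouring genes with at least 50 UMIs, in chromosome order but not all shown, in dentate granule-like, CA3-like, CA1-like and inhibitory-like nuclei. Around Cic the points of Pafah1b3 and Tmem145 lie above 0 in the 3 excitatory classes while Gsk3a reaches 0.23 at most.

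Atxn1 is overlapped on the opposite strand by Gmpr, Gm47460 and 4930453C13Rik in the annotation, while no annotated gene overlaps Cic or Atxn1l. Whether the authors counted by strand is not given in the sources used here. Gm47460, a predicted gene, had 166 and 350 UMIs in CA1-like (1.36, 1.09 to 1.63) and 94 and 207 in CA3-like nuclei (1.37, 1.02 to 1.74), but 406 and 294 in dentate granule-like (0.04, -0.18 to 0.26) and 95 and 92 in inhibitory-like nuclei (0.13, -0.30 to 0.56). Subicular or cortical excitatory-like nuclei had 52 and 66 UMIs (0.39, -0.16 to 0.94), with Atxn1 at 0.61. Gm47460 was thus past 1.5-fold in CA1-like and CA3-like nuclei, as Atxn1 was, and not in subicular or cortical excitatory-like nuclei. Over all nuclei it had 1149 and 1537 UMIs, beside the 145148 and 175783 of Atxn1. Gmpr, GMP reductase, had 1007 and 883 UMIs in CA1-like (0.09, -0.04 to 0.22) and 548 and 449 in CA3-like nuclei (-0.05, -0.23 to 0.13).

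Farther from Atxn1, 5033430I15Rik had 12 and 105 UMIs in CA1-like (3.36, 2.55 to 4.41) and 60 and 27 in dentate granule-like nuclei (-0.63, -1.36 to 0.04). Mylip, a ubiquitin ligase gene, had 0.39 (0.30 to 0.48) in CA1-like and 0.45 (0.28 to 0.62) in CA3-like nuclei. Rbm24, an RNA-binding protein gene, had 0.51 (0.39 to 0.63) in CA1-like nuclei. Cap2, which was also among the genes most like Atxn1 in pattern, had -0.21 (-0.26 to -0.16) in CA3-like nuclei. Of the 6 neighbours of Atxn1, 2 were past 1.5-fold in CA1-like nuclei, against 10.4% of all features higher and 3.52% lower. In CA3-like nuclei it was 1, against 5.91% and 2.13%, and in dentate granule-like nuclei 1, against 6.30% and 4.95%. Subicular or cortical excitatory-like nuclei had 1, against 5.07% higher. Astrocyte-like and cycling progenitor-like nuclei each had 1, with no share over all features given here. The other classes, CA2-like and oligodendrocyte-like nuclei among them, had 0.

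Beside Atxn1l, Ist1, an ESCRT-III-associated gene, had nearly the same ratio in CA1-like (0.35, 0.24 to 0.46), dentate granule-like (0.33, 0.25 to 0.41) and inhibitory-like nuclei (0.34, 0.22 to 0.47). Pkd1l3 had 0.74 (0.43 to 1.05) in CA1-like nuclei. Ap1g1, an adaptor subunit gene, stayed between -0.05 and 0.07 in the 4 classes.

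The proteins that work with Capicua and the Ataxins were taken as a list of 30 genes: RNA and 14-3-3 binding partners of Ataxin-1, corepressors, and kinases and ubiquitin ligases that act on either. In dentate granule-like nuclei 29 had at least 50 UMIs, and 0 were 1.5-fold higher or lower (median 0.09), against 6.30% of all features higher and 4.95% lower (median 0.02). In CA3-like nuclei 1 of 29 was higher and 0 lower (median 0.10), against 5.91% and 2.13% (median 0.08). In CA1-like nuclei 2 of 28 were higher and 0 lower (median 0.09), against 10.4% and 3.52% (median 0.10). In inhibitory-like nuclei 0 of 29 were past the fold in either direction, against 1.46% and 0.837%. In these 4 classes the shares were no larger than those of all features. In CA2-like nuclei 2 of 22 were higher, against 7.39% of all features, and in radial glia-like nuclei 3 of 21, Ywhab, Anp32a and Hdac1, against 2.57%.

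Mapk3, which encodes the kinase ERK1, was past the fold in CA1-like and CA3-like nuclei. It had 52 and 115 UMIs in CA1-like (1.42, 0.94 to 1.93) and 76 and 123 in CA3-like nuclei (0.93, 0.51 to 1.36). Dentate granule-like nuclei, with the higher Mapk3 counts, had 708 and 578 (0.22, 0.06 to 0.38), and inhibitory-like nuclei 106 and 116 (0.31, -0.09 to 0.70). Hdac1, a histone deacetylase of corepressor complexes, had 471 and 583 UMIs in CA1-like nuclei (0.59, 0.41 to 0.77), just past the 1.5-fold limit, and 64 and 79 in CA2-like nuclei (0.79, 0.30 to 1.30). Rbm17, a splicing factor that binds Ataxin-1, had 0.11, 0.28 and 0.11 in CA1-like, CA3-like and dentate granule-like nuclei.

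A list of 14 Capicua targets stood apart from the partner list in size. Dentate granule-like nuclei had 9 of 12 counted targets 1.5-fold higher and 1 lower (median 1.72), against 6.30% and 4.95% of all features. CA3-like nuclei had 8 of 14 higher and 0 lower (median 0.61), against 5.91% and 2.13%. CA1-like nuclei had 6 of 13 higher and 0 lower (median 0.47), against 10.4% and 3.52%. Inhibitory-like nuclei had 1 of 11 higher, Etv4, and 1 lower, Dusp4 (median 0.04), against 1.46% and 0.837%. Microglia-like nuclei, also of another lineage, had 3 of 6 higher, against 1.92% of all features (median 0.45). These were Etv4, from 14 to 83 UMIs (2.83, 2.04 to 3.80), Etv5, from 157 to 244 (0.94, 0.64 to 1.24), and Etv1 (0.60, 0.39 to 0.82). The microglia-like Etv4 levels were 55.1% of the control and 33.1% of the knockout library level, and those of Etv5 168% and 92.5%. Free RNA at 10% of a nucleus's UMIs would supply part of these counts, and its part in the microglia-like ratios was not tested. Etv4 in inhibitory-like nuclei had 44 and 153 UMIs (1.96, 1.48 to 2.49). These levels were 27.4% and 8.82% of the Etv4 level over the library, so free RNA at 10% of a nucleus's UMIs would supply all of the knockout count, and its part in the ratio was not tested. Etv5 had 584 and 447 (-0.21, -0.39 to -0.03).

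Within the 3 main excitatory classes, the order differed between many targets and Cic itself. Of 11 targets counted in all 3 main excitatory classes, 9 had their largest ratio in dentate granule-like nuclei, all but Spred2 and Spry2. The share of all features with their largest ratio there was not worked out, so this count describes the list only. The 6 given here were named because they had the largest ratios past 1.5-fold in each class, so they were picked by the values shown. For Etv4, granule nuclei stood at 6.72 on the log2 scale (6.36 to 7.14), above CA3-like nuclei at 5.67 (5.08 to 6.40) and CA1-like nuclei at 5.41 (5.09 to 5.78). The control Etv4 level of CA3-like nuclei was 8.57% of the library level, which free RNA at 10% would supply in full. For granule, CA3-like and CA1-like nuclei in turn, Etv5 gave 5.95, 2.79 and 1.91. In control granule nuclei Etv4 stood at 13.6% and Etv5 at 5.11% of the library level, so free RNA at 10% would supply most of the former and all of the latter. The growth factor signalling gene Shc3 gave 3.64, 1.55 and 1.55, and Spry4, a feedback inhibitor of receptor tyrosine kinase signalling, 5.61, 2.92 and 1.82. The Spry4 value in granule nuclei rests on 8 control and 292 knockout UMIs (4.70 to 6.92), and that in CA3-like nuclei on 39 control UMIs. Spred3, another such inhibitor, gave 2.65, 1.16 and 1.03, and Etv1 gave 1.87, 1.77 and 0.64. Of these 3 classes, all 6 had their largest ratio in dentate granule-like nuclei, where the ratios of Cic (0.44) and Atxn1 (0.15) were the smallest. This order does not extend to all classes. In oligodendrocyte-like nuclei 7 of 7 counted targets were higher (median 3.57), against 4.91% of all features, and Cic and Atxn1 were both past 1.5-fold. The target median was also above that of dentate granule-like nuclei (1.72) in committed oligodendrocyte precursor-like (3.74) and Cajal-Retzius-like nuclei (2.25), and below it in every other class. The granule and CA3-like intervals overlapped for Etv4, as printed above, and for Etv1 (1.79 to 1.95 against 1.69 to 1.85).

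The 3 list genes with an octamer near the start did not behave alike. Spred3, with the octamer 10 bases before its start, had 477 and 2110 UMIs in dentate granule-like nuclei (2.65, 2.51 to 2.80). Spry2 had 679 and 216 there (-1.14, -1.37 to -0.92), the 1 target past the fold downward. Dusp6, a MAP kinase phosphatase gene, had 19 and 48 UMIs there, under the minimum, and 315 and 229 in CA1-like nuclei (-0.18, -0.43 to 0.07). In dentate granule-like nuclei Spred3 was thus higher and Spry2 lower, and the few Dusp6 UMIs were more in the knockout library. The CA1-like interval of Dusp6 held 0. With 3 genes, nothing can be said about octamers and the sign of a ratio.

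**Figure D4:**
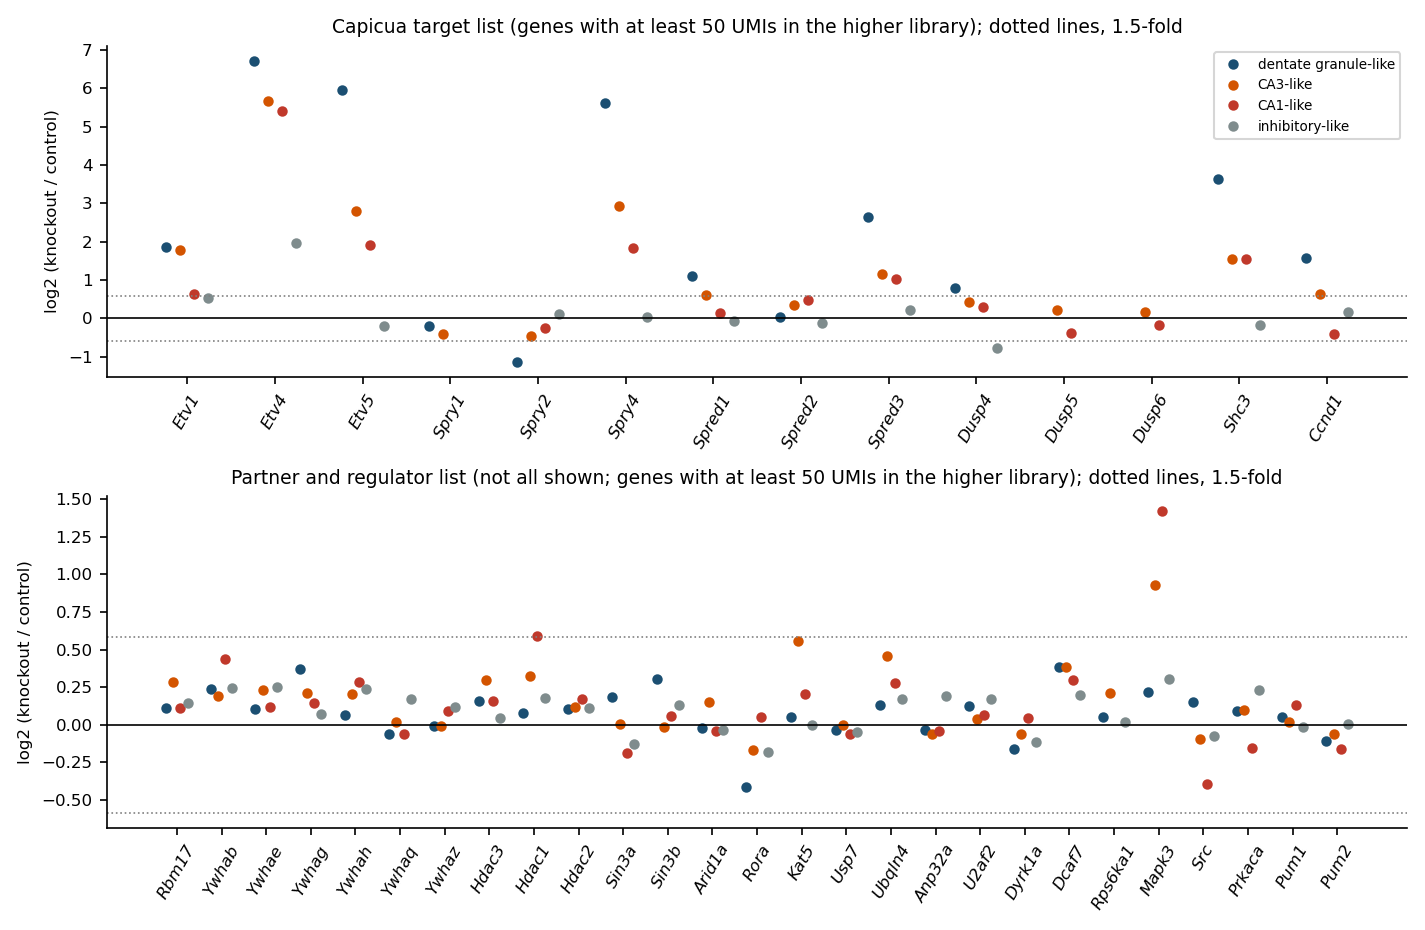
Log2 ratio of knockout over control for genes of the Capicua target list (top) and the partner and regulator list (bottom, not all shown) with at least 50 UMIs in the higher library, in dentate granule-like, CA3-like, CA1-like and inhibitory-like nuclei, with dotted lines at 1.5-fold. Targets reach 6.72 (Etv4 in dentate granule-like nuclei), while in the partner list Mapk3 (1.42 and 0.93) and Hdac1 (0.59) lie past the line.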

How the data were processed

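Nuclei of 1 control and 1 knockout library, each pooled from 3 mice, were sequenced with 3′ capture. The deposited files are UMI counts per gene and barcode, which the authors obtained from Cell Ranger 8.0.1 and the mm39 build, per the submitters' processing notes. Whether intronic reads were counted, and by strand, is not given in the sources used here.

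Nuclei with at least 500 genes and at most 5% mitochondrial UMIs were kept, and Scrublet (scanpy 1.11.5) marked 13.1% of control and 10.7% of knockout nuclei as doublets, which were left out. Both libraries were clustered together (3000 variable genes, 30 components, Leiden resolution 1), and clusters were named from 22 marker sets. Each log2 ratio adds 0.5 UMI to both sums. It has an exact conditional binomial interval, levels have Poisson intervals, and shares have binomial (Clopper-Pearson) intervals. The ratio was checked on simulated data. With 1 library a group no test was made. TMM factors came from edgeR 4.0.16. The female and male split took nuclei with at least 2 Xist UMIs and no Y-linked UMI as female, and those with a Y-linked UMI and no Xist UMI as male.

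The 3 genes, the target and partner lists and the neighbour rule were chosen with earlier results of these data known. Named genes were the 3 members, Etv4 and Etv5, the neighbours, and the 5 genes most alike in pattern. List genes were named if past 1.5-fold in dentate granule-like, CA3-like or CA1-like nuclei (up to 6 per list and class, by size of the ratio). Outside this rule, Rbm17, Spry2, Spred2, Dusp4, Dusp6, Ywhab and Anp32a were chosen after their values were seen. RefSeq and GENCODE tables are of GRCm38, not mm39, and served for names, order, span and promoters; 94.9% of 33696 features matched. Some genes of the lists and neighbourhoods enter the counts but are not reported here by name. The planned comparison of protein sequences was not made.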

Additional observations from a re-analysis of the deposited data

Results flagged for a closer look

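Female and male nuclei of the 2 pools gave log2 ratios of opposite sign for the 3 genes in 17 of the 45 pairs of gene and class, none with both intervals clear of 0 on opposite sides. For Cic the female and male values were -0.12 and 0.58 in CA2-like, 0.060 and -0.064 in astrocyte-like, -1.09 and 1.07 in cycling progenitor-like, 0.27 and -0.10 in inhibitory-like, 0.33 and -0.19 in microglia-like, 0.38 and -0.22 in oligodendrocyte precursor-like, and -0.75 and 1.00 in radial glia-like nuclei. For Atxn1 they were -0.049 and 0.085 in inhibitory-like and 0.27 and -0.04 in oligodendrocyte precursor-like nuclei. For Atxn1l they were 0.22 and -0.27 in CA2-like, 0.88 and -0.72 in Cajal-Retzius-like, -0.23 and 0.02 in dentate granule-like, -0.18 and 0.18 in immature dentate granule-like, and 0.0099 and -0.23 in inhibitory-like nuclei. The remaining Atxn1l values were -0.45 and 0.23 in oligodendrocyte precursor-like, -0.073 and 0.078 in oligodendrocyte-like, and 0.29 and -0.01 in subicular or cortical excitatory-like nuclei. The differences between the sexes were not tested, and the female nuclei of a library come from 1 mouse.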

How the results depend on the processing

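No paired analysis was possible because each group has 1 library. Over 12 other settings in each of dentate granule-like, CA3-like, CA1-like and inhibitory-like nuclei, the log2 ratio left its counting interval in 8 of 48 values for Cic, 27 of 48 for Atxn1, whose intervals are narrow, and 2 of 48 for Atxn1l. In CA1-like nuclei Cic was 0.62 thinned to 2000 UMIs, 1.36 in female and 0.49 in male nuclei, and in CA3-like nuclei 0.54, 1.27 and 0.43. Female nuclei gave Cic 0.64 in dentate granule-like and 0.27 in inhibitory-like nuclei. Atxn1 in CA1-like nuclei was 0.92 thinned, 0.94 in male nuclei, 0.90 clustered without the genes that differed, 0.77 with median-of-ratios and 0.77 with TMM scaling, 0.90 with 10% free RNA subtracted and 0.90 as a mean over nuclei. In CA3-like nuclei it was 0.81 with doublets kept, 0.78 thinned, 0.91 at resolution 0.5, 0.90 clustered without those genes, 0.76 and 0.77 with the 2 scalings and 0.89 with free RNA subtracted. In dentate granule-like nuclei Atxn1 was 0.11 in female and 0.17 in male nuclei, 0.12 at resolution 0.5, 0.12 and 0.12 with the scalings and 0.11 with free RNA subtracted. In inhibitory-like nuclei it was 0.062 with doublets kept, -0.092 thinned, -0.049 in female and 0.085 in male nuclei, -0.031 and -0.025 with the scalings and -0.039 with free RNA subtracted. In oligodendrocyte precursor-like nuclei Atxn1 (0.11) turned to -0.028 with doublets kept, -0.043 in male nuclei and -0.0071 with free RNA subtracted. Atxn1 lost its 1.5-fold call in Cajal-Retzius-like nuclei with doublets kept (0.45) and in male nuclei (0.55), and in committed oligodendrocyte precursor-like nuclei with doublets kept (0.44), where it was 1.99 with free RNA subtracted. Subicular or cortical excitatory-like nuclei also lost it in males (0.54), with both scalings (0.54 and 0.54) and as a mean over nuclei (0.58), and Cic lost it there with the scalings and thinned (0.31). Cic intervals held 0 when thinned in CA1-like, CA3-like and dentate granule-like nuclei, and the Atxn1l interval in CA1-like nuclei held 0 in 6 settings. Atxn1l was -0.37 in dentate granule-like nuclei thinned and -0.23 in inhibitory-like nuclei of males. Of the target list, 5 genes were past 1.5-fold in CA3-like nuclei when thinned, and in inhibitory-like nuclei 1 at 2-fold, 1 thinned and 0 in female nuclei. Of the partner list in CA1-like nuclei, 1 was past the limit at 2-fold, 1 with doublets kept, 1 with median-of-ratios scaling, 0 thinned and 0 in male nuclei. In CA3-like nuclei it was 0 at 2-fold, 2 with free RNA subtracted and 3 in female nuclei, with 1 in dentate granule-like nuclei of females and 1 in inhibitory-like nuclei thinned. For both lists, the numbers counted and the shares of all features under these settings are not given here. These list counts therefore cannot be set against all features. The causes were not tested. Depth limits Cic and Atxn1l, with at most 0.251 UMIs per nucleus in the 4 classes.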
